A study of Homo sapiens with 3 samples.

Results

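TMPRSS2 and ERG are 2 genes on the same arm of chromosome 21, and the values below are the called regions of 2 histone marks around them in LNCaP, an androgen-responsive line from a metastatic human prostate carcinoma. Members were all regions that overlapped a window around TMPRSS2 (42.78 to 42.96 Mb) or around ERG (39.7 to 40.1 Mb) in the hg19 build, which came to 89 of 271889 regions. Of these, 31 were H3K27ac regions of 71077 in that list, and 58 were H3K4me1 regions of 200812. Both genes lie on the minus strand, so the start of each is its higher coordinate: 42.88 Mb for TMPRSS2, with its far end at 42.836 Mb, and 40.034 Mb for ERG, with its far end at 39.752 Mb. These gene ends are known here to 1 kb only.

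The study measured each mark by ChIP-seq in 1 library of LNCaP cells, for which no treatment, hormone condition or genotype is given, and a further sample is an input library without antibody, which was not analysed here. The 2 libraries are labelled alike except for the antibody. With 1 library per mark no difference could be tested, no p-value was computed, and every comparison below describes these lists. The lists give no read counts, so the depth is unknown and a stretch without a region cannot be read as free of the mark. The identity of the cells was not checked against markers of prostate epithelium, because no gene positions in hg19 were used beyond those of the 2 genes.

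TMPRSS2 encodes a transmembrane serine protease of luminal prostate epithelium whose transcription is driven by the androgen receptor through its promoter and distal enhancers. ERG encodes a transcription factor of the ETS family that normally acts in endothelial and blood-forming cells. In many prostate cancers a rearrangement within chromosome 21 joins the start of TMPRSS2 to the coding part of ERG, often with loss of the sequence between them, and puts ERG under androgen control. LNCaP is known as a line without this fusion, so both genes are described here at their normal places. H3K27ac is found at active promoters and enhancers, and H3K4me1 at enhancers that are active or only primed and on the flanks of promoters.

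The first question was how the androgen-driven gene compares with its fusion partner and with the sequence between them. TMPRSS2 was densely marked, ERG was not, and the interval was close to the average of the lists for H3K27ac and above it for H3K4me1. H3K27ac covered 59.25 kb of the 180 kb TMPRSS2 window (32.9%) against 11.35 kb of the 400 kb ERG window (2.84%). Per Mb this was 329 kb at TMPRSS2 and 28.4 kb at ERG, an 11.6-fold difference. H3K4me1 covered 81.85 kb of the TMPRSS2 window (45.5%) and 37.05 kb of the ERG window (9.26%), or 455 and 92.6 kb per Mb, a 4.91-fold difference. The 2 loci thus differed more in the active mark than in the enhancer mark.

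Set against the lists as a whole, TMPRSS2 stood far above the average for both marks, whereas ERG was below it for H3K27ac and near it for H3K4me1. Over all chromosomes, taken from the first to the last region of each, H3K27ac covered 47.9 kb and H3K4me1 97.4 kb per Mb. Relative to these levels TMPRSS2 was 6.87-fold higher for H3K27ac and 4.67-fold higher for H3K4me1. ERG reached 0.593 of the H3K27ac level and 0.951 of the H3K4me1 level. Relative to chromosome 21 alone, ERG reached 0.463 and 0.819. The covered length of H3K27ac was then divided by that of H3K4me1. This ratio was 0.724 at TMPRSS2, 0.306 at ERG, 0.350 in the interval and 0.492 over all chromosomes. H3K4me1 thus covered more than H3K27ac in each. Relative to all chromosomes, the balance leaned to the active mark at TMPRSS2 and away from it at ERG and in the interval alike.

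**Figure D1:**
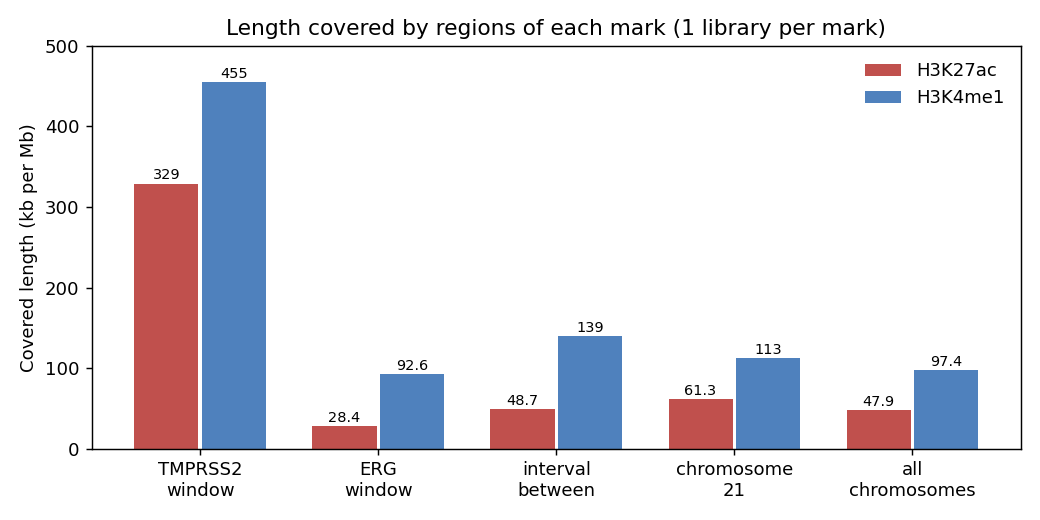
Length covered by regions of each mark, in kb per Mb, in the TMPRSS2 window, the ERG window, the interval between them, chromosome 21 and all chromosomes, with 1 bar per mark and no error because each mark has 1 library. The TMPRSS2 bars stand at 329 and 455 kb per Mb, and the ERG bars at 28.4 and 92.6.

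Windows of the same length laid along every chromosome placed the 2 loci in the lists. Among 15132 windows of 180 kb that held a region, 90 (0.595%) had as much H3K27ac as TMPRSS2 or more, where the median window had 5.9 kb. For H3K4me1, 182 of them (1.20%) reached the 81.85 kb of TMPRSS2, and the median was 13.2 kb. ERG was an ordinary locus by this measure: of 7095 windows of 400 kb, 56.6% had at least its H3K27ac and 43.0% at least its H3K4me1, with medians of 14.2 and 29.55 kb. On chromosome 21 alone, 3 of 191 windows matched TMPRSS2 for H3K27ac and 2 for H3K4me1.

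The start of TMPRSS2 lay inside its widest H3K27ac region. That region, chr21:42867801-42882000, was 14200 bp wide, which ranked 170 among all H3K27ac regions (the widest 0.239%), and reached 12.2 kb into the gene and 2.0 kb upstream. It carried the lowest value of the authors' unnamed score, 0.001, which 14.3% of H3K27ac regions share. Low scores go with wide regions in these lists, and the score serves here only to rank regions within a list. H3K4me1 regions covered 87.7% of it.

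H3K4me1 was interrupted just inside the TMPRSS2 start while H3K27ac ran through. A region of 10200 bp, chr21:42869151-42879350, ended 0.65 kb inside the gene, and a region of 2400 bp, chr21:42879751-42882150, began 0.25 kb inside it and passed the start. The 400 bp between them lay wholly within the H3K27ac region. The break is narrower than the 550 bp of the narrowest region in either list, and the start is known to 1 kb only, so whether the break sits on the start cannot be told apart from a place beside it.

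At ERG the start, taken here as the upper end of the gene, had H3K4me1 beside it and no H3K27ac near it. The H3K4me1 region chr21:40031851-40033850, 2000 bp wide with a score of 0.003, ended 0.15 kb short of the start, within its 1 kb precision. The nearest H3K27ac region, chr21:39984401-39986100, lay 47.9 kb inside the gene, and on the upstream side the next one, chr21:40114601-40115600, lay 80.6 kb away and outside the window. The first 20 kb inside ERG held 3.05 kb of H3K4me1 and no H3K27ac, against 13.9 and 15.8 kb in the first 20 kb of TMPRSS2. The promoter sequence at the uppermost ERG start in RefSeq is shown because this end of the gene had H3K4me1 and no H3K27ac. It comes from RefSeq on another build (GRCh38.p14, chr21:38660618-38660917, minus strand), runs from 250 bases before a transcript start to 50 after it, and was not placed in hg19. Capitals mark CCGCCC or its reverse complement GGGCGG, letters of the GC box, searched on both strands; one GGGCGG is followed directly by CCGCCC.
ERG, uppermost start: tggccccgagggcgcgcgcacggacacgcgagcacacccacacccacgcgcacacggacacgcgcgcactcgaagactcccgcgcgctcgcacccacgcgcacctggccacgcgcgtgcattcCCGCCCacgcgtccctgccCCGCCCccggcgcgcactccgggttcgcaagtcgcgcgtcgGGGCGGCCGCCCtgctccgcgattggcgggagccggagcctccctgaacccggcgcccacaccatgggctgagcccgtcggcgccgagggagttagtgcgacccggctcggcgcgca

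This ERG promoter is a CpG-rich sequence. It holds 53 CpG dinucleotides in 300 bases, where the median of 35116 promoters of this length is 14 and 0.604% have at least as many, and 77.0% of its bases are G or C. It has 4 matches to the GC box letters, which 45.0% of those promoters hold at least once, and no TATAAA on either strand, which 11.5% hold. RefSeq lists 3 further ERG start windows 75.7 to 162 kb further into the gene on GRCh38.p14, each with 4 CpG dinucleotides and none of the GC box letters. The 2 farthest of them overlap. These inner starts were not placed in hg19, so whether an H3K27ac region inside ERG lies near one of them was not determined. Of the 2 genes, 1 had entries in the promoter table, and TMPRSS2 had none.

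Upstream of TMPRSS2, where androgen-responsive enhancers of the gene are known, H3K27ac came in a tight group followed by sparser regions. The group had 4 regions, at chr21:42890651-42895000, chr21:42896651-42900300, chr21:42900401-42904800 and chr21:42906951-42909850, from 10.65 to 29.85 kb upstream of the start. Their widths were 4350, 3650, 4400 and 2900 bp, each above the list median of 1600 bp, and all had the score 0.001, at which the list median is 3700 bp. H3K4me1 covered 89.7% of the first and the whole of the other 3. Between the region over the start and this group no H3K27ac was listed for 8.65 kb.

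In the upstream flank the widest H3K4me1 region, at 10100 bp, was wider than the widest H3K27ac region, at 4400 bp. The median width there was lower for H3K4me1, 1500 bp against 1850 bp for H3K27ac. Of the 5 widest H3K4me1 regions of the window, 3 were in the upstream flank: chr21:42896001-42906100 at 10100 bp, chr21:42935051-42942100 at 7050 bp and chr21:42906501-42912100 at 5600 bp. The other 2 of the 5 lay in the gene, the 10200 bp region beside the start and chr21:42837951-42845800 at 7850 bp. All 5 had the score 0.003, which 37.5% of the 32 H3K4me1 regions at TMPRSS2 and 27.8% of the whole list had or fell below.

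The far part of the upstream flank carried narrower H3K27ac regions inside H3K4me1. These were chr21:42915451-42916450, chr21:42936751-42937850, chr21:42938101-42939100, chr21:42940051-42941550, chr21:42951501-42953250 and chr21:42954051-42956000, with widths of 1000 to 1950 bp, from 35.45 to 76 kb upstream. The first 5 lay wholly in H3K4me1 and the last over 94.9% of its width. In the 80 kb of flank as a whole, H3K27ac covered 32.0% and H3K4me1 51.2%, and 97.9% of the H3K27ac length was also H3K4me1. The corresponding 66 kb upstream of ERG held no H3K27ac and a single H3K4me1 region, chr21:40083851-40084750, 900 bp wide. Its score of 0.093 is the highest of the list, where high scores go with narrow regions. The 5277 H3K4me1 regions with this score have a median width of 600 bp. Which end of the score marks a stronger region is not stated, so the value cannot be read as strength.

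Within the TMPRSS2 gene both marks covered the same length, 26.9 kb of 44 kb each (61.1%), and overlapped over 20.85 kb. Beside the region over the start, 10 H3K27ac regions touched the gene. They were chr21:42833851-42836500, chr21:42838051-42840750, chr21:42842451-42843300, chr21:42844651-42845200, chr21:42848401-42851550, chr21:42851701-42852550, chr21:42854101-42854900, chr21:42858301-42861550, chr21:42864301-42865250 and chr21:42865351-42866450. Their widths ran from 550 to 3250 bp with a median of 1025 bp, and their scores from 0.009 to 0.048. None of the 10 had the score 0.001, whereas 5 of the 10 upstream regions did, beside 14.3% of the whole list. For 10 regions a count of 0 is not far from that share. The region over the start, most of which lies in the gene, had the score 0.001 and is not among the 10. Of the 10 that touched the gene, 5 were wider than the list median at their own score.

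In the upstream flank H3K4me1 extended past H3K27ac, whereas in the gene each mark extended past the other over the same length. H3K27ac alone covered 6.05 kb of the gene (13.8%) and 0.55 kb of the upstream flank (0.688%), whereas H3K4me1 alone covered 6.05 kb of the gene (13.8%) and 15.9 kb of the flank (19.9%). In the gene 77.5% of the H3K4me1 length was also H3K27ac, and in the flank 61.2%. One H3K27ac region of the window, chr21:42854101-42854900, 25.1 kb inside the gene, met no H3K4me1 region. Of the 10 gaps between neighbouring H3K4me1 regions that ended inside the gene, 9 contained some H3K27ac, and all 4 gaps of 1 kb or less were filled by it. Of the 11 gaps upstream of the start, 1 contained any, and none of the 2 gaps of 1 kb or less was filled. Of the 10 gaps that ended downstream of the gene, 3 contained some, and 2 of the 5 gaps of 1 kb or less were filled. No share over all gaps of the list was computed. H3K27ac covered 61.1% of the gene and 32.0% of the upstream flank, and whether the counts go beyond this coverage was not tested.

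Downstream of TMPRSS2, on the side of the interferon-induced gene MX1, which is the next protein-coding gene in RefSeq's order, the marks thinned out. The hg19 position of MX1 was not used. Whether MX1 lies within this flank, and whether regions of the flank belong to MX1, therefore cannot be told. The 3 H3K27ac regions wholly in this flank were chr21:42791451-42793550 with a score of 0.001, chr21:42805151-42806500 with 0.009 and chr21:42832451-42833600 with 0.02. A further region, chr21:42833851-42836500, was counted with the gene because it crosses the gene end. Most of it lies in the flank, and that part is included in the covered length. H3K27ac covered 12.1% and H3K4me1 25.0% of this 56 kb flank. A stretch of 22.05 kb, chr21:42810001-42832050, had neither mark and was the widest break in H3K4me1 within the window.

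Joined at distances of up to 10 kb, the H3K27ac regions of TMPRSS2 formed 1 large cluster. It ran over 84 kb, chr21:42832451-42916450, with 17 regions that covered 48.5 kb, and took in the whole gene and the near upstream group. By covered length it ranked 81 of 40686 clusters. The largest cluster at ERG held 2 regions and 4.1 kb and ranked 9349. Joined at up to 5 kb, the TMPRSS2 cluster was cut to 32.2 kb.

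**Figure D2:**
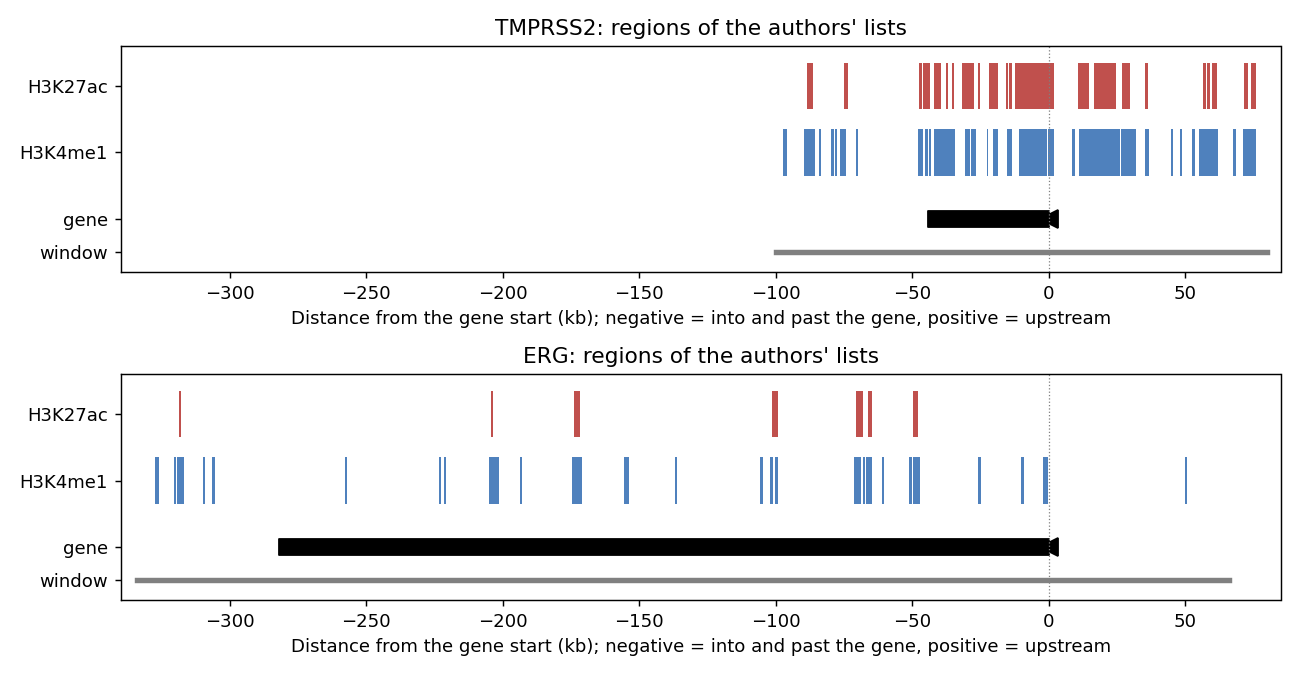
H3K27ac regions (red) and H3K4me1 regions (blue) at TMPRSS2 (top) and ERG (bottom) by distance from the gene start in kb, on 1 scale, with the gene as a black bar whose arrow marks start and direction and the window as a grey line. The TMPRSS2 start lies in the 14.2 kb H3K27ac region, and the nearest H3K27ac region to the ERG start lies 47.9 kb inside that gene.

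ERG had 7 H3K27ac regions, of which 6 were in the gene and none upstream. From the far end to the start they were chr21:39715201-39716050 (850 bp, score 0.021), which lay past the gene, chr21:39829801-39830400 (600 bp, 0.032), chr21:39860101-39862200 (2100 bp, 0.009), chr21:39932701-39934700 (2000 bp, 0.02), chr21:39963501-39966150 (2650 bp, 0.001), chr21:39967701-39969150 (1450 bp, 0.009) and the region 47.9 kb from the start (1700 bp, 0.007). Their median width of 1700 bp was near the 1600 bp of the list, and the widest, at 2650 bp, was narrower than each of the 4 grouped regions upstream of TMPRSS2. Of the 7, 4 lay between 47.9 and 101.3 kb inside the gene, and the widest break between neighbours was 114 kb.

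H3K4me1 at ERG had more regions than H3K27ac. There were 26 regions, 20 of them in the gene, with widths from 600 to 3600 bp and a median of 1025 bp, against 550 to 10200 bp and a median of 1100 bp at TMPRSS2. The 5 widest were chr21:39829051-39832650 (3600 bp), chr21:39859451-39863000 (3550 bp), chr21:39962651-39965400 (2750 bp), chr21:39714451-39717100 (2650 bp) and chr21:39984201-39986850 (2650 bp). Each of these 5 contained or met an H3K27ac region. The 3 H3K4me1 regions nearest the start, chr21:40008151-40009250, chr21:40024001-40025050 and the one at the start, met none. Median gaps between H3K4me1 regions were 7800 bp at ERG and 1600 bp at TMPRSS2, with 4000 bp over the list, so the 2 genes differed in spacing far more than in typical width.

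The overlap of the marks was counted next, with a shared base as the criterion. At TMPRSS2, 23 of 24 H3K27ac regions (95.8%, exact Clopper-Pearson 95% interval 78.9% to 99.9%) met H3K4me1, and at ERG 7 of 7 (interval 59.0% to 100%), beside 83.1% of the whole list. Both intervals include that share. Of the H3K4me1 regions, 20 of 32 (62.5%, 43.7% to 78.9%) met H3K27ac at TMPRSS2 and 9 of 26 (34.6%, 17.2% to 55.7%) at ERG, beside 34.5% of the whole list. The interval of the TMPRSS2 share lay above that of the list, and the wide interval of the ERG share, from 26 regions, included it. Neighbouring regions are not independent, so these intervals are too narrow, and they cover counting error only.

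By the share of H3K4me1 length that also had H3K27ac, TMPRSS2 was again above the list, and ERG was below it. By the share of H3K27ac length within H3K4me1, both were above the list. H3K27ac covered 62.3% of the H3K4me1 length at TMPRSS2, 26.9% at ERG and 35.1% over all chromosomes. H3K4me1 covered 86.1% of the H3K27ac length at TMPRSS2, 87.7% at ERG and 71.5% over all chromosomes. Where H3K27ac was present at either gene it lay mostly within H3K4me1, and the genes differed in how much of the H3K4me1 also had H3K27ac. H3K27ac itself covered 32.9% of the TMPRSS2 window, 2.84% of the ERG window and 4.79% of all chromosomes. Whether these shares, or the region counts above, go beyond this difference in coverage was not tested. H3K4me1 regions without H3K27ac were narrow at both: a median of 925 bp for the 12 at TMPRSS2 and 850 bp for the 17 at ERG, against 2250 and 2650 bp for those with it. The whole list has 900 and 1700 bp for these classes, and wider regions meet another mark more easily.

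**Figure D3:**
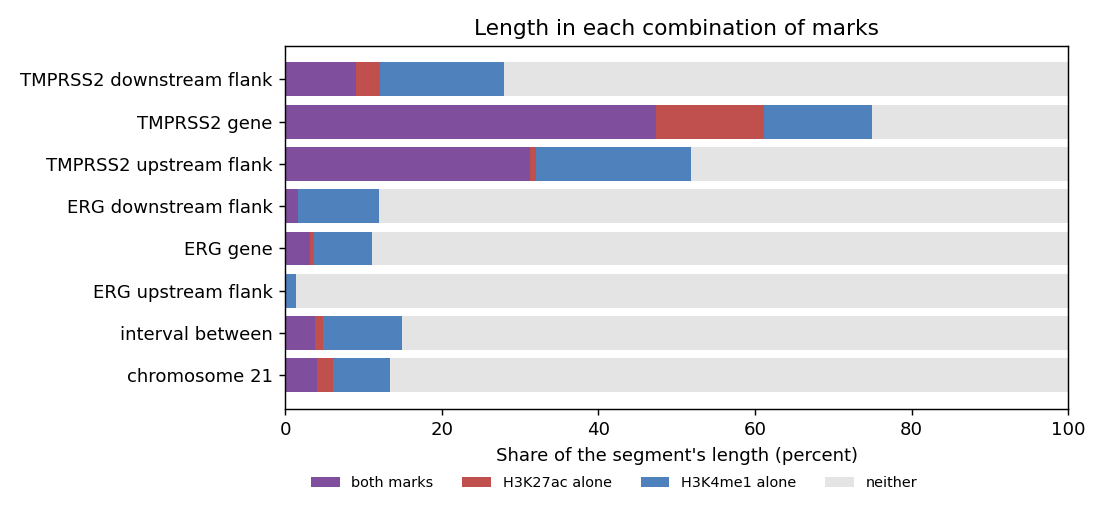
Share of the length, in percent, with both marks, H3K27ac alone, H3K4me1 alone or neither, in the downstream flank, gene and upstream flank of TMPRSS2 and ERG, in the interval between them and on chromosome 21. Both marks together take 47.4% of the TMPRSS2 gene and 3.23% of the ERG gene, and the flank upstream of ERG is 98.6% without either.

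The interval between the 2 windows, which lies within the sequence that fusion by deletion removes, spans 2.68 Mb (chr21:40100001-42780000). It held 75 H3K27ac and 265 H3K4me1 regions, covering 48.7 and 139 kb per Mb. These are 1.02 and 1.43 times the levels over all chromosomes, so the interval was average in the active mark. TMPRSS2 exceeded the interval 6.75-fold in H3K27ac and 3.26-fold in H3K4me1, and the interval exceeded ERG 1.72-fold and 1.505-fold. H3K27ac met 27.5% of its H3K4me1 regions (22.3% to 33.3%), and H3K4me1 met 90.7% of its H3K27ac regions (81.7% to 96.2%), beside 34.5% and 83.1% of the whole lists. The first of these intervals lay below the share of the list, and the second included it.

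Neither end of the interval reached the levels of TMPRSS2. Of its 27 bins of 100 kb, the last of which is 80 kb, none was covered by H3K27ac or by H3K4me1 to the percentage of the TMPRSS2 window. The 3 bins richest in H3K27ac were chr21:40600001-40700000 with 16.6 kb, chr21:40700001-40800000 with 13.95 kb and chr21:42600001-42700000 with 12.55 kb, and together they held 33.0% of the H3K27ac of the interval. No H3K27ac was listed in 5 bins, and 9 had a share of H3K27ac no higher than the ERG window. RefSeq lists 16 protein-coding genes in this order between ERG and TMPRSS2, from ETS2, another ETS factor, which follows ERG, to the interferon-induced MX2 and MX1 beside TMPRSS2, but their hg19 positions were not used and no bin is assigned to a gene.

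Summed over 3 stretches, a division chosen after the bins were seen, the covered length per Mb was higher at both ends of the interval than in its middle. Over the 1.2 Mb next to ERG, H3K27ac covered 66.5 kb per Mb and H3K4me1 covered 175. The middle 1.1 Mb, chr21:41300001-42400000, had 22.9 and 61.5 kb per Mb, and no bin there exceeded 7.05 kb of H3K27ac or 9.15 kb of H3K4me1. Single bins overlapped between the stretches: of the 12 bins next to ERG, which ran from 0 to 16.6 kb of H3K27ac and from 7.8 to 25.65 kb of H3K4me1, 8 had less H3K27ac than the highest middle bin. The 0.38 Mb next to the TMPRSS2 window had 67.6 and 251 kb per Mb, so towards TMPRSS2 the H3K4me1 level was above that next to ERG while the H3K27ac level was much the same. Of the 4 bins next to the TMPRSS2 window, 3 had less H3K27ac than the 7.05 kb of the highest middle bin. They held 5.45, 4.55 and 3.15 kb, the last in the bin of 80 kb. Only chr21:42600001-42700000, with 12.55 kb, exceeded it, so the higher H3K27ac level at this end rested largely on 1 bin. In H3K4me1 all 4 bins exceeded every middle bin. The ERG window, at 28.4 and 92.6 kb per Mb, was lower in both marks than the 1.2 Mb beside it.

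Single regions in the interval were of similar width to those at TMPRSS2, apart from the widest at TMPRSS2. Median widths were 1550 bp for H3K27ac and 1000 bp for H3K4me1, against 1625 and 1100 bp at TMPRSS2. The 3 widest H3K27ac regions were chr21:40718301-40723000 (4700 bp), chr21:40320501-40325100 (4600 bp) and chr21:40682851-40687300 (4450 bp), each wider than all H3K27ac regions of TMPRSS2 except the 14200 bp at its start. The 3 widest H3K4me1 regions were chr21:42715751-42723900 (8150 bp), chr21:40894001-40901900 (7900 bp) and chr21:42617201-42624400 (7200 bp), against 10200, 10100 and 7850 bp for the 3 widest at TMPRSS2. Their overlap with H3K27ac was 16.6%, 28.5% and 68.1% of the width. The longest stretch without H3K27ac was 229 kb, chr21:40325101-40554200, in the part next to ERG, and the longest without either mark was 62 kb, chr21:41819351-41881350.

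**Figure D4:**
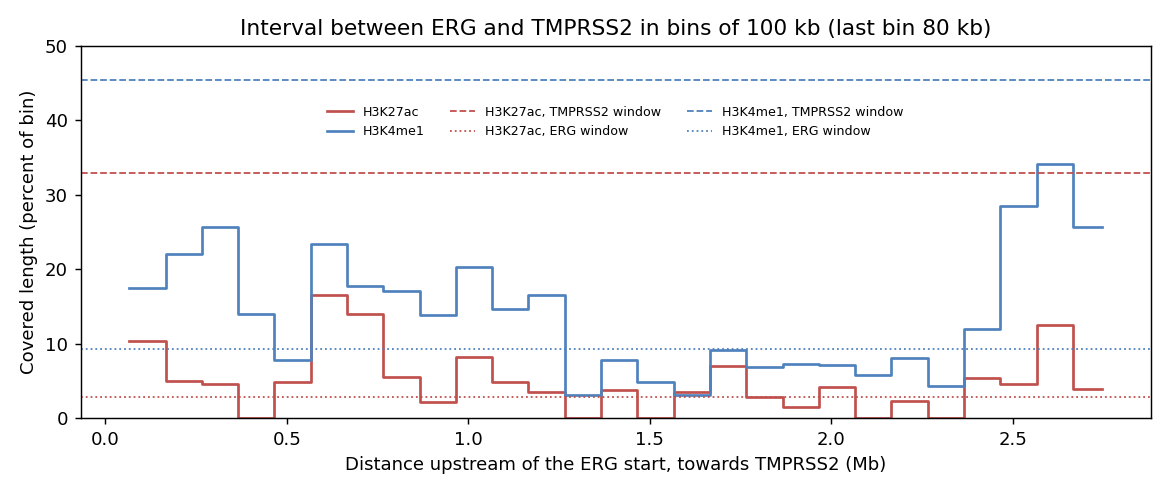
Share of each 100 kb bin covered by H3K27ac (red) and H3K4me1 (blue), in percent, against the distance upstream of the ERG start in Mb, with dashed lines for the TMPRSS2 window and dotted lines for the ERG window. No bin reaches the dashed line of its own mark, at 32.9% for H3K27ac and 45.5% for H3K4me1.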

How the data were processed

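ChIP-seq reads of LNCaP were single-end on an Illumina HiSeq instrument, per the labels' protocols, and the aligner Bowtie 0.12.8 and build hg19 come from the submitters' processing notes. How regions were called, at which threshold and with or without the input, is not given in the sources used here, and the choice of caller sets number and width of regions. The deposited lists hold a position and an unnamed score per region. Copy number was not corrected for.

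The members and lists were chosen with earlier results of these data known. Window and gene positions came from the rule that defines the members. Starts were read as 0-based and are printed from 1. Mitochondrial regions were left out. Regions crossing a window edge would be clipped for lengths and kept whole for counts. Overlap meant at least 1 bp, and clusters joined H3K27ac regions up to 10 kb apart. Named regions were, by a fixed rule, all H3K27ac regions of both windows, the 5 widest H3K4me1 regions of each, those nearest each start, and the 3 widest regions of each mark, richest bins and longest empty stretches of the interval; further regions were named after their values were seen. The interval computations were checked on simulated regions. Alternatives were the list-median score, H3K4me1 scores under 0.05, merging within 1 kb, overlap of 50%, other window edges, joining distances, bins and window offsets. Scripts ran in Python 3.11.15 (numpy 2.4.6; pandas 2.3.3), with exact intervals from scipy 1.17.1 and plots from matplotlib 3.10.9.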

Additional observations from a re-analysis of the deposited data

How the results depend on the processing

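Of 85 alternative values for 27 results, 70 stayed within 1.5-fold of the main value (counts, lengths) or inside its interval (shares), and 15 did not. TMPRSS2 exceeded ERG in all 10 alternatives for the density ratio, from 8.82-fold without its widest region, a setting added after seeing the data, to 16.4-fold over the gene alone for H3K27ac, and from 4.30- to 6.17-fold for H3K4me1. Over the gene alone, H3K27ac at TMPRSS2 was 611 kb per Mb. Scores at or below the list median kept 11 H3K27ac regions at TMPRSS2 (45.8%), 4 at ERG (57.1%) and 47 between them (62.7%), beside 58.9% of the whole list. For H3K4me1 they kept 20 (62.5%), 12 (46.2%) and 138 (52.1%), beside 50.6% of the whole list. All 11 H3K27ac regions (100%) kept at TMPRSS2 met H3K4me1. Merging within 1 kb left 21 H3K4me1 regions at TMPRSS2. In the interval, an overlap of 50% gave 78.7% for H3K27ac and 17.7% for H3K4me1, and H3K4me1 scores under 0.05 gave 35.8% for H3K4me1. Overlap shares of the whole lists were not computed at these settings or at the list-median score. Whether the whole lists moved alike is therefore unknown. Joining at 5 kb cut the TMPRSS2 cluster to 32.2 kb. On autosomes, 58.2% of windows had at least the H3K27ac of ERG and 45.3% its H3K4me1. The cause of these changes was not tested, beyond the fewer or longer regions that each setting makes. No paired analysis was possible because there is a single library for either mark. Depth is unknown, so a stretch without a region may hold marks below the threshold of the caller.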
